A study of Mus musculus with 61 samples.

Results

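The colony-stimulating factor receptors and their ligands were followed through the chromatin data of microglia lacking the microglial super-enhancer of Sall1, and through those of 3 kinds of sorted brain nuclei. The set held 7 genes, chosen by name, with earlier results of these data known. They were the receptor genes Csf1r, Csf2ra, Csf2rb, Csf2rb2 and Csf3r and the ligand genes Csf1 and Il34. In the microglial table they took 77 of 133129 windows of 1 kb, by the gene each window was assigned to. Csf1 had 21 windows, Csf1r 20, Csf2ra 19, Csf3r 11, Csf2rb 3, Csf2rb2 3 and Il34 none. Windows overlapped where open regions lay close together, and 42 of the 77 overlapped another window of the set, so neighbouring values are not independent.

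CSF1R is the receptor tyrosine kinase on which microglia depend for survival, and CSF1 and IL-34 are its ligands. The receptors for GM-CSF, IL-3 and IL-5 each pair a ligand-binding alpha chain with a shared signalling beta chain encoded by Csf2rb, and mice carry a further beta chain, encoded by Csf2rb2, that serves IL-3 alone. G-CSF signals through CSF3R, best known for its part in neutrophil production.

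All groups used here were C57/Bl6 mice unless a strain is named. Sall1 enhancer knockout (EKO) mice were homozygous for a CRISPR/Cas9 deletion spanning 13 kb of the microglial Sall1 super-enhancer, an allele present in every cell of the animal, and WT mice carried the intact enhancer. Both were males 8 to 12 weeks of age. H3K27ac, a histone mark of active enhancers and promoters, was measured by ChIP-seq in 2 EKO and 2 WT libraries of microglia sorted as CD11b+ CD45low CX3CR1+ cells, and in 2 EKO and 2 WT libraries each of PU1, Olig2 and NeuN nuclei. Binding was listed as 1 set of reproducible peaks per group for SALL1 (EKO, WT, and the wild-derived strains PWK and Spret without the deletion), for SMAD4 (libraries labelled mutant, and WT) and for the co-activator p300 (WT). The labels of the SMAD4 mutant libraries conflict, naming a conditional Smad4 deletion in one field and the enhancer knockout in another, so they are called the libraries labelled mutant. No label says whether libraries came from separate animals, and p-values here measure the spread between libraries, which may be technical.

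The labels were checked on Sall1 itself. The 65 microglial windows nearest to Sall1 summed to 312 and 155 tags in EKO libraries 1 and 2, against 4117 and 2471 tags in WT libraries 1 and 2 (tags per 10000000 mapped). Depth in the microglial libraries was 9963454 and 13392915 tags in EKO and 24357795 and 10047696 tags in WT. EKO library 1 stood above the others throughout, with a median log2 level over tested windows of 6.41, against 4.95 in EKO library 2 and 5.57 and 5.20 in the WT libraries. Fold changes were therefore computed after quantile normalization of the 4 libraries, while levels are given as deposited. Among the nuclei, WT PU1 library 1 held 11149 regions, against 25990 to 36057 in the other PU1 libraries, 35802 to 44206 in Olig2 and 64901 to 74196 in NeuN libraries. A list of 6 microglial marker genes summed to 9189 to 55111 tags in PU1 nuclei, 663 to 998 in Olig2 nuclei and 225 to 704 in NeuN nuclei. A list of 5 neuronal markers summed to 0 to 65 tags in PU1 nuclei and 19734 to 24242 in NeuN nuclei, and a list of 7 oligodendrocyte-lineage markers to 215 to 1863 tags in PU1 nuclei and 24913 to 40951 in Olig2 nuclei.

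Receptor genes carried H3K27ac in PU1 nuclei and ligand genes in Olig2 and NeuN nuclei. The measure was the sum of normalized tags over called regions that overlapped the gene body or its 5 kb flanks (mm10). Csf1r, chromosome 18, 61105572 to 61131139, had 4163 and 3647 tags in the EKO and 821 and 5131 tags in the WT PU1 libraries, and no called region in any of the 8 Olig2 and NeuN libraries. Csf3r, the G-CSF receptor gene (chromosome 4, 126023441 to 126044975), had 1623 and 1215 tags in EKO and 437 and 2315 tags in WT PU1 nuclei. It had 0 to 21.9 tags in Olig2 nuclei and 31.4 to 55.6 tags in NeuN nuclei. All of those Olig2 and NeuN tags lay in a region over the start site of the neighbouring gene Mrps15 beyond the 3′ end of Csf3r, and without that region both cell types were at 0.

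The beta chain genes followed the same order. Csf2rb, the common beta chain (chromosome 15, 78325800 to 78351001), had 440 and 346 tags in EKO and 63.6 and 468 tags in WT PU1 nuclei, 22.3 to 32.6 tags in Olig2 nuclei and none in NeuN nuclei. Its Olig2 tags came from an intronic region centred 13308 to 13707 bp past the start site, and no Olig2 region lay at its promoter. Csf2rb2 (chromosome 15, 78282507 to 78305721) had 239 and 144 tags in EKO and 45.3 and 267 tags in WT PU1 nuclei, and none in the other nuclei. These 2 genes are recent duplicates. Their promoters, 250 bases before to 50 after the start, were identical at 251 of 268 aligned positions (93.7%, RefSeq sequence, GRCm38), so reads may have been split between them and the level of each is uncertain.

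Csf2ra, the alpha chain of the GM-CSF receptor (chromosome 19, 61217191 to 61228461), was the receptor gene that also carried the mark in all 4 NeuN libraries. It had 301 and 219 tags in EKO and 47.3 and 157 tags in WT PU1 nuclei, and 155 and 175 tags in EKO and 266 and 169 tags in WT NeuN nuclei. Olig2 nuclei had 31.3 and 0 tags in EKO and 0 and 8.94 tags in WT. PU1 and NeuN levels overlapped, with a difference of -10.3 tags (exact permutation test, p = 0.943). The regions did not sit in the same place. PU1 regions were centred 528 to 914 bp past the start site and 3 of the 4 covered it, whereas NeuN regions were centred 1659 to 1885 bp past it and none covered it.

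Csf1, the ligand of CSF1R with the broader distribution (chromosome 3, 107741048 to 107760469), was highest in Olig2 nuclei. It had 46.9 and 62.2 tags in EKO and 0 and 165 tags in WT PU1 nuclei, against 1459 and 1366 tags in EKO and 1292 and 1089 tags in WT Olig2 nuclei. NeuN nuclei lay between, with 313 and 316 tags in EKO and 288 and 422 tags in WT. In Olig2 nuclei the region over the promoter and most of the gene body held 1193, 1165, 1020 and 871 tags, against 142, 126, 128 and 197 tags in NeuN nuclei. A separate region at the 3′ end of the gene was closer in level, with 266, 201, 272 and 218 tags in Olig2 nuclei and 163, 190, 160 and 207 tags in NeuN nuclei. These values run EKO 1, EKO 2, WT 1, WT 2.

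Il34, the ligand of CSF1R known to be made by neurons (chromosome 8, 110741829 to 110805949), was highest in NeuN nuclei. It had no called region in any PU1 library, 223 and 205 tags in EKO and 143 and 193 tags in WT Olig2 nuclei, and 493 and 439 tags in EKO and 371 and 506 tags in WT NeuN nuclei. Olig2 and NeuN nuclei used different regions of the gene. The Olig2 region lay 16296 bp past the start site with 199, 205, 133 and 193 tags in EKO 1, EKO 2, WT 1 and WT 2, where NeuN libraries had none. The largest NeuN region lay 51419 bp past it, with 357, 395, 311 and 457 tags in the same order and none in Olig2 libraries. That NeuN region also holds the start site of the noncoding gene Gm15894, and no called region of any library held the annotated start site of Il34.

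**Figure D1:**
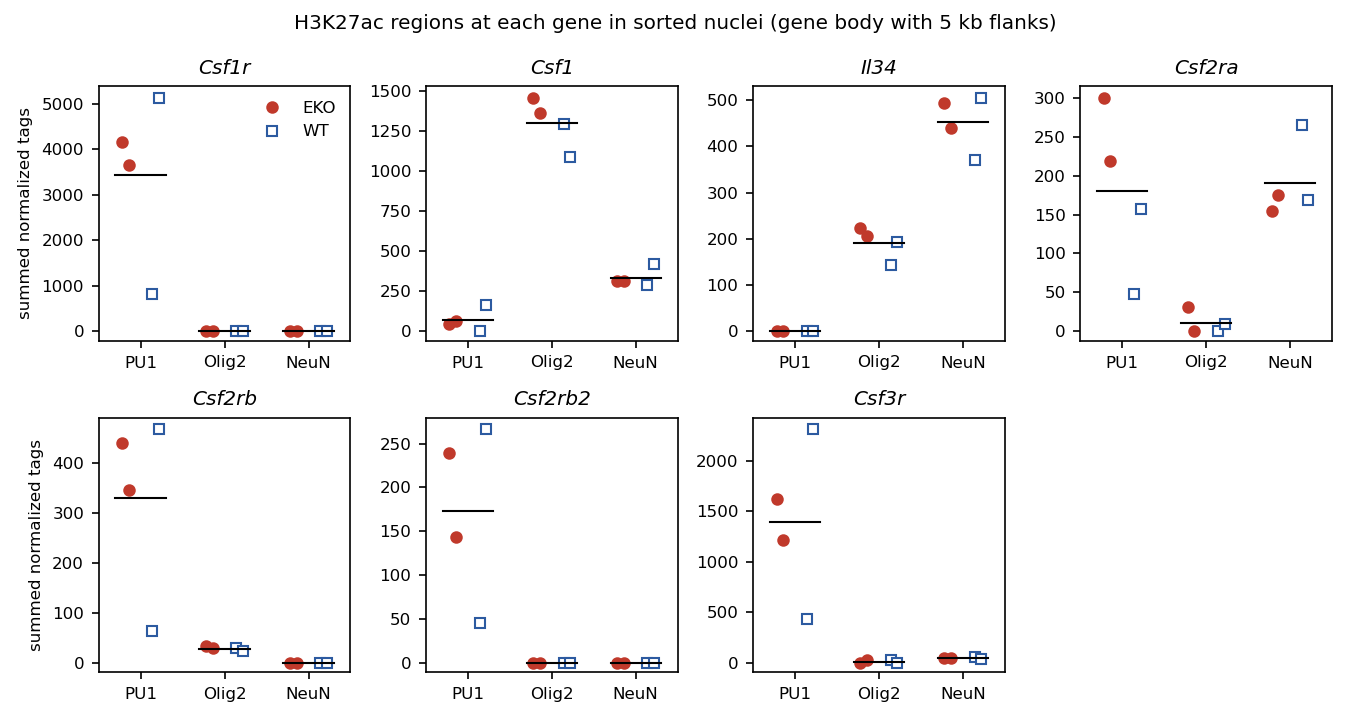
H3K27ac at the 7 genes in sorted nuclei. Each point is 1 library and gives the summed normalized tags of called regions over the gene body with 5 kb flanks. Csf1r, Csf2rb, Csf2rb2 and Csf3r were highest in PU1 nuclei (Csf1r 821 to 5131 tags), Csf1 in Olig2 nuclei (1089 to 1459 tags) and Il34 in NeuN nuclei (371 to 506 tags), while Csf2ra reached a like level in PU1 and NeuN nuclei.

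Over the 4 libraries a cell type, 5 of the 7 genes had every PU1 value above every Olig2 value, where 10.2% of 23921 genes with a region did, and 2 had every PU1 value below, where 30.7% did. Against NeuN nuclei 4 of 7 were above, where 7.28% of 27521 genes were, and 2 were below, where 42.5% were. The 2 genes below in both comparisons were the ligand genes Csf1 and Il34. In the exact two-sided permutation test each of these differences had p = 0.0286, the smallest that 4 against 4 libraries allow. After Benjamini-Hochberg adjustment over all genes of the exact test p was 0.0698 against Olig2 and 0.0574 against NeuN, so none of the 14 comparisons reached 0.05. Every gene at the smallest exact p shares these adjusted values, so no gene could have reached 0.05. With WT PU1 library 1 left out the counts were again 5 and 4 above and 2 and 2 below, and the mean of Csf1r in PU1 nuclei was 4313 tags, against 3440 ± 1851 tags (SD, n = 4) with it. Bulk nuclei were measured, so fewer nuclei of a type and less mark per nucleus cannot be told apart.

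Within a cell type, 2 EKO against 2 WT libraries allow no exact p below 0.333, and the values are given without a test. In PU1 nuclei the EKO and WT ranges overlapped for Csf1r, Csf1, Csf2rb, Csf2rb2 and Csf3r, with WT library 1 the lowest of the 4 for each. For Csf2ra WT library 1 was again lowest and both EKO PU1 values were above both WT values, as they were for 21.9% of 18553 genes with a region in PU1 nuclei, and the list of WT library 1 summed to 804259 tags, the lowest of the 4. In Olig2 nuclei both EKO values were above both WT values for Csf1 and for Il34, as they were for 22.1% of 20168 genes, and the whole region lists of both Olig2 EKO libraries also summed to more tags than those of both WT libraries. In NeuN nuclei EKO and WT overlapped for both ligands.

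By a fixed measure of likeness, Pearson's r of log2(summed tags + 1) over the 12 nuclei libraries, the genes closest to Csf1r among 8944 were Ncf1 (r = 0.99998), Siglech, Bin2, Neurl3 and F11r (r = 0.99989). Each of these 5 had 0 tags in all 8 Olig2 and NeuN libraries, as Csf1r did, and shared zeros and library depth weigh heavily in such an r.

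In sorted microglia, distal windows near the ligand gene Csf1 and inside the receptor gene Csf3r lost H3K27ac in EKO, while no window in the body of Csf1r was called by limma. Of the 77 windows, 44 had a mean above 16 tags and were tested. A window was called at an adjusted p under 0.05 and a fold above 2 (limma, Benjamini-Hochberg adjustment over all 55285 tested windows). By this rule 7 of 44 were lower in EKO, or 15.9%, where 7.23% of all tested windows were, and 1 of 44 was higher, or 2.27%, where 9.22% were. Of the 7 lower windows 3 were at Csf1, 3 at Csf3r and 1 at Csf1r, and since some overlap they form 6 stretches. The median log2 change was -0.30 over the 44 windows and -0.01 over all tested windows, and 35 of the 44 had a negative change, where 51.0% of all tested windows did. On the deposited values 24 of the 44 were negative, where 31.6% of all were. At any fold size 15 of the 44 had an adjusted p under 0.05 by limma, 13 lower and 2 higher, where 24.7% of all tested windows did.

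These calls rest on 4 libraries and on their scaling. With WT library 1 left out limma called no window, at the 7 genes or in the whole table, where 7 windows of the set were lower and 5 higher at an unadjusted p under 0.05. Without WT library 2, EKO library 1 and EKO library 2 it called 1, 3 and 2 windows lower. The single higher call was lost with any 1 library left out, and 2 to 5 windows were then higher at an unadjusted p under 0.05. On the deposited values without quantile normalization limma called 0 windows of the set, with 1 lower and 0 higher at an unadjusted p under 0.05, where 0.128% of all windows were lower and 0.814% higher. edgeR on the recovered whole tags called 7 lower and 1 higher, where 7.31% and 10.3% of all windows were, and DESeq2 called 6 lower and 1 higher. The Csf1 window at -22.96 kb, the largest change of the set, was called under every alternative except the deposited values and the omission of WT library 1.

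All 7 losses called by limma were distal. Among the 25 tested windows over 3 kb from the start site 7 were lower and 0 higher (0 also at an unadjusted p under 0.05 and by edgeR and DESeq2), with a median log2 change of -0.56, where 10.5% and 12.3% of all distal windows were lower and higher. Among the 19 tested windows within 3 kb, 0 were lower and 1 was higher, with a median of -0.05 (3 were lower at an unadjusted p under 0.05, and 1 was called lower by edgeR and DESeq2), where 3.17% and 5.38% of all such windows were. Directly on the deposited values, both EKO libraries lay below both WT libraries in 5 of the 44 windows, where 6.12% of all windows did, and above them in 4, where 17.8% did.

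**Figure D2:**
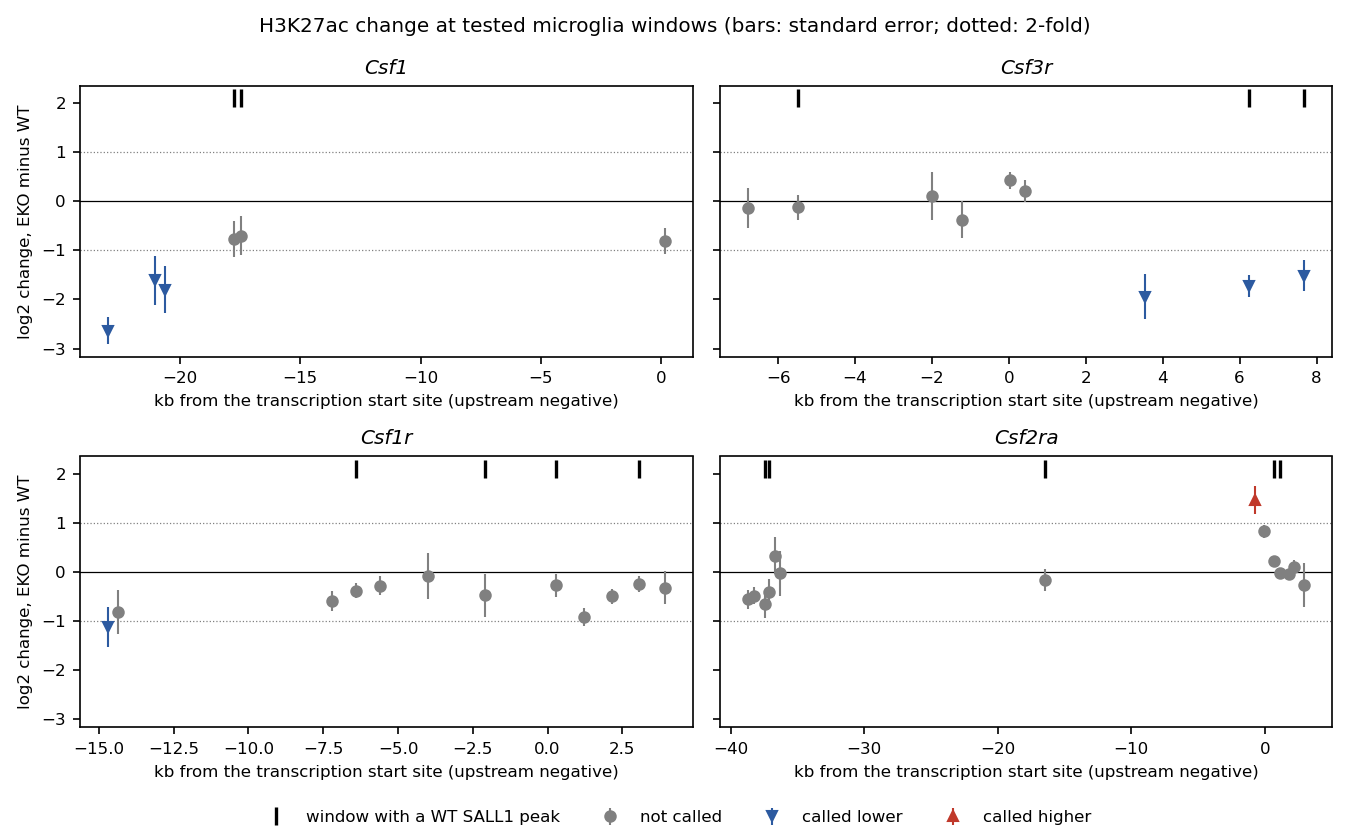
Log2 change of H3K27ac, EKO over WT microglia, at the tested windows of Csf1, Csf3r, Csf1r and Csf2ra, by distance from the start site (limma, quantile-normalized tags, bars give the standard error). Coloured triangles mark called windows, dotted lines a 2-fold change and ticks along the top a window with a SALL1 peak in WT. The lowest value is the Csf1 window at -22.96 kb (-2.64) and the highest the Csf2ra window at -0.731 kb (1.46), and all 12 Csf1r windows lie below 0.

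At Csf1 the strongest change of the set was an intergenic window at -22.96 kb from the start site, chr3:107782930-107783930. It held 34.1 and 12.7 tags in EKO against 134 and 89.6 tags in WT microglia, so that both EKO values were below both WT values. Its log2 change was -2.64 (SE 0.28, limma adjusted p = 2.23e-07). A pair of overlapping windows at -21.0 kb and -20.6 kb was also lower. The window at -21.0 kb held 16.1 and 6.72 tags in EKO and 40.2 and 16.9 tags in WT (log2 change -1.61, SE 0.50, limma adjusted p = 0.0212). The window at -20.6 kb held 13.1 and 7.47 tags in EKO and 36.1 and 22.9 tags in WT (log2 change -1.80, SE 0.48, limma adjusted p = 0.00764). None of these 3 windows held a listed SALL1, SMAD4 or p300 peak.

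The one SALL1 peak at Csf1 lay elsewhere, at -17.7 kb, in a pair of overlapping windows that did not pass the call. The window at -17.7 kb held 72.3 and 11.95 tags in EKO and 48.9 and 32.8 tags in WT, with the 2 EKO libraries on either side of both WT libraries (log2 change -0.77, SE 0.37, limma adjusted p = 0.133, and -1.34 to -0.19 with 1 library left out). The start-site window of Csf1, at 0.133 kb, held 67.3 and 28.4 tags in EKO and 71.0 and 56.7 tags in WT (log2 change -0.81, SE 0.27, limma adjusted p = 0.0293), which is under the 2-fold required. In PU1 nuclei a called region covered the -22.96 kb window in 1 of 4 libraries, WT library 2, with 29.2 tags, and in neither EKO library. Over the windows at -21.0 kb and -20.6 kb PU1 nuclei had 13.8 tags in EKO library 1 and 43.3 in WT library 2. EKO library 2 and WT library 1 had no called region there. No Olig2 or NeuN library had a called region over the 3 lower windows. The -17.7 kb window had 20.7 to 38.4 tags in the NeuN libraries. Among PU1 libraries a called region covered it in WT library 2 alone, with 52.5 tags. Markers of other brain cells also differed between the same libraries. Of 7 oligodendrocyte-lineage genes 2, Mbp and Mog, had tested windows, and 8 of their 17 were lower in EKO, with summed tags of 1266 and 545 in EKO against 1511 and 1125 in WT, and of 4 astrocyte genes Slc1a3 alone had tested windows, 14 of 19 lower, with summed tags of 1517 and 470 in EKO against 2150 and 1356 in WT. Neither list had a higher window, also at an unadjusted p under 0.05. Of 10 endothelial windows 3 were lower and 2 higher, and the 1 neuronal window tested was not called. Slc1a3 also carried 444 to 3122 tags in PU1 nuclei, where the astrocyte genes Gfap and Aqp4 had 0. The part of such cells in the Csf1 result was not tested. The 2 Csf1 sequences are shown because one holds the largest loss and the other the only SALL1 peak. They are 200 bases of mm10 read on the gene's strand (minus), chr3:107783330-107783529 at the centre of the -22.96 kb window and chr3:107778066-107778265 at the centre of the peak. Capitals mark GAGGAA or its reverse complement TTCCTC, a core bound by PU.1-type ETS factors, and CAGAC or GTCTG, a SMAD-type box, searched on both strands.
Csf1 window at -22.96 kb: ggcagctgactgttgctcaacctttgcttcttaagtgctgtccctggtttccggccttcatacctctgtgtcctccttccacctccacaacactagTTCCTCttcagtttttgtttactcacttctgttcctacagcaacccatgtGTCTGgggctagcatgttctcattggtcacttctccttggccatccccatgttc
Csf1 SALL1 peak at -17.7 kb: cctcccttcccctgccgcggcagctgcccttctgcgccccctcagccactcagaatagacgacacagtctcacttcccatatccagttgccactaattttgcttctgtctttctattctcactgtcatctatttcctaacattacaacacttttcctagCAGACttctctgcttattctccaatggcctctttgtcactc

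The window centre held 1 ETS core and 1 SMAD-type box, and the peak held 0 ETS cores and 1 box. Over the 132879 windows of the table read in the same way, 36.4% held the ETS core and 41.6% the SMAD-type box in 200 bases, so each match is common.

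At Csf3r the loss lay inside the gene. The window at 6.24 kb, in an intron (chr4:126030394-126031394), overlapped a SALL1, a SMAD4 and a p300 peak. It held 88.3 and 52.3 tags in EKO against 252 and 146 tags in WT microglia, with no overlap. Its log2 change was -1.73 (SE 0.23, limma adjusted p = 5.75e-06). The intronic window at 3.54 kb, with no listed peak, held 16.1 and 6.72 tags in EKO and 28.7 and 35.8 tags in WT (log2 change -1.94, SE 0.46, limma adjusted p = 0.00298). The third, at 7.68 kb, lies outside the naming rule and is added because it was called and holds a SALL1 peak. It held 48.2 and 12.7 tags in EKO and 72.7 and 46.8 tags in WT, values that just overlap as deposited (log2 change -1.52, SE 0.32, limma adjusted p = 0.00101).

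No other window of Csf3r was called. The start-site window held 334 and 105 tags in EKO and 150 and 93.6 tags in WT (log2 change 0.43, SE 0.18, limma adjusted p = 0.0768). The upstream window at -5.49 kb also held SALL1, SMAD4 and p300 peaks, and it had 108 and 35.8 tags in EKO and 70.2 and 45.8 tags in WT (log2 change -0.12, SE 0.25, limma adjusted p = 0.775). So of the 2 Csf3r windows that held all 3 factors, 1 was called lower and the other was not, a contrast that was not itself tested. In the nuclei data an intronic stretch, chr4:126029554-126036569, held 11.4% and 11.5% of the tags of Csf3r in EKO PU1 nuclei, against 21.9% and 26.2% in WT PU1 nuclei. The stretch takes in the windows at 6.24 kb and 7.68 kb and an untested one at 10.9 kb, and leaves out the one at 3.54 kb. These 2 against 2 shares did not overlap and allow no test, and how many other genes do the same was not computed. The tags per kb of called intron did overlap, at 41.4 and 33.2 in EKO against 34.1 and 86.6 in WT.

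The 2 Csf3r peak sequences are shown to set the intronic site that lost the mark beside the upstream site that did not pass the test. Both are 200 bases at the centre of a SALL1 peak, mm10, plus strand, at chr4:126030827-126031026 and chr4:126019110-126019309, with capitals as for Csf1.
Csf3r intronic SALL1 peak: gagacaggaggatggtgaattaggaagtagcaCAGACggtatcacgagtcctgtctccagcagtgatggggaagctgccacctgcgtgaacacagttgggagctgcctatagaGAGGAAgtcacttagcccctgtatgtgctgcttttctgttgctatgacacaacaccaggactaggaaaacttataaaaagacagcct
Csf3r upstream SALL1 peak: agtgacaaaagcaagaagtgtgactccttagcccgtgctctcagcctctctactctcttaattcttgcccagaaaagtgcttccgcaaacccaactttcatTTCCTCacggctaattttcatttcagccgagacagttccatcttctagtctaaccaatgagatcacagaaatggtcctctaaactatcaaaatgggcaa

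The intronic peak held 1 ETS core and 1 SMAD-type box, and the upstream peak 1 ETS core and no box. Of 15396 SALL1 peaks of WT microglia read over the same length, 46.0% held the ETS core, 38.1% the SMAD-type box, 76.6% AATA, the short A/T-rich word searched as a SALL-type motif, and 7.55% the AP-1 word TGANTCA. Among the 15 SALL1 peaks at the 7 genes, 9 held the ETS core, 7 the SMAD-type box, 12 AATA and 1 the AP-1 word.

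Csf1r changed little. After quantile normalization all 12 tested windows had a log2 change below 0 by limma, with a median of -0.43 and a range of -1.12 to -0.08. By edgeR 11 of the 12 were below 0, and on the deposited values 10 were. The one called window, at -14.7 kb, held 36.1 and 8.96 tags in EKO and 27.9 and 32.8 tags in WT microglia (log2 change -1.12, SE 0.41, limma adjusted p = 0.0488). EKO library 1 was the highest of the 4 there, the groups overlapped as deposited, and edgeR did not call it (adjusted p = 0.0995). edgeR and DESeq2 instead called the intronic window at 1.23 kb, with 168 and 62.0 tags in EKO and 225 and 121 tags in WT (log2 change -0.92, SE 0.19, limma adjusted p = 0.000966), which in limma was under the 2-fold required. In PU1 nuclei a region covered the -14.7 kb window with 117 and 76.8 tags in EKO, none in WT library 1 and 336 tags in WT library 2. Upstream windows with means under 16 tags were not tested. At -18.4 kb microglia had 39.1 and 14.9 tags in EKO and 2.46 and 5.97 in WT. The overlapping window at -19.2 kb had 29.1 and 11.2 in EKO and 3.69 and 5.97 in WT. At -28.3 kb and -11.6 kb both EKO values were also above both WT values, and in the remaining untested windows the groups overlapped. A window further upstream, called higher in EKO, is assigned to Pdgfrb and is given with the pathway genes.

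The start-site window of Csf1r, at 0.292 kb, held 140 and 41.1 tags in EKO and 89.9 and 65.7 tags in WT (log2 change -0.28, SE 0.23, limma adjusted p = 0.419). The largest of the gene's windows, at 2.16 kb in an intron, had 407 and 123 tags in EKO and 358 and 199 tags in WT (log2 change -0.50, SE 0.15, limma adjusted p = 0.0160). It was lower by the p-value and under the 2-fold required. The next window, at 3.06 kb, held SALL1, SMAD4 and p300 peaks and had 284 and 97.8 tags in EKO and 213 and 134 tags in WT (log2 change -0.25, SE 0.17, limma adjusted p = 0.303). The upstream SALL1 and p300 site at -6.42 kb had 326 and 108 tags in EKO and 264 and 162 tags in WT (log2 change -0.38, SE 0.16, limma adjusted p = 0.0802). In each of these 4 windows EKO library 1 was above both WT libraries and EKO library 2 below both. An intron of Csf1r is known to hold FIRE, an enhancer that microglia need to express the gene, and which window covers it was not tested. A further 30 windows in the Csf1r body or its 5 kb flanks are given to the microRNA gene Mir6983 in the table. Of these 21 were tested and limma, edgeR and DESeq2 each called 0 (2 were lower at an unadjusted p under 0.05 in limma), with a median log2 change of -0.05 and a range of -0.88 to 0.87.

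Csf2ra was the only gene of the set with a called gain. The window at -0.731 kb, just before the start site (chr19:61228649-61229649), held 133 and 50.8 tags in EKO against 24.2 and 22.9 tags in WT microglia, both EKO values above both WT values. Its log2 change was 1.46 (SE 0.28, limma adjusted p = 0.000507). The start-site window moved the same way, with 765 and 254 tags in EKO and 242 and 178 tags in WT (log2 change 0.82, SE 0.13, limma adjusted p = 7.60e-05), under the 2-fold required. The strongest windows of the gene, past the start site, did not pass the test. At 1.12 kb they held 1688 and 555 tags in EKO and 918 and 675 tags in WT (log2 change -0.03, SE 0.09, limma adjusted p = 0.840).

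No distal window of Csf2ra was called. At -37.4 kb, under a SALL1 peak, 113 and 23.2 tags were found in EKO and 66.1 and 65.7 tags in WT (log2 change -0.66, SE 0.29, limma adjusted p = 0.101, and -1.06 to -0.26 with 1 library left out). Overlapping windows at -38.3 kb and -38.7 kb were lower by the p-value and under the 2-fold required. Their log2 changes were -0.48 (SE 0.17, limma adjusted p = 0.0452) and -0.56 (SE 0.20, limma adjusted p = 0.0407). In both the groups overlapped as deposited. In PU1 nuclei a called region reached the -0.731 kb window in EKO library 1 alone. Markers of other myeloid cells moved in the same libraries. Of 22 tested windows of 5 border macrophage genes 12 were higher in EKO and 0 lower (0 also at an unadjusted p under 0.05 in limma), where 9.22% of all tested windows were higher. Of the 12, 9 were at Mrc1, 2 at Pf4 and 1 at F13a1, and Lyve1 and Cd163 had 0. Summed tags of the list over 40 windows were 1690 and 652 in EKO against 380 and 283 in WT. Of 23 tested windows of 4 monocyte genes 15 were higher, 14 of them at Itga4 and 1 at Ccr2, and 2 were lower, both at Plac8, with summed tags of 5873 and 2191 in EKO against 1402 and 1281 in WT. For the neutrophil list 4 of 8 genes had windows, of which 1 window was tested and was higher, and the list summed to 118 and 65.0 tags in EKO against 32.4 and 38.8 tags in WT. The part of such cells in the Csf2ra, Csf2rb and Csf3r values was not tested. In PU1 nuclei the genes of these lists differed. Itga4 had 1095 and 923 tags in EKO and 0 and 24.2 in WT, and Mrc1 had 1963 and 1451 in EKO and 0 and 172 in WT. F13a1, Pf4 and Ltf also had both EKO values above both WT values, as 21.9% of genes with a region did. Ccr2 (0 and 23.2 tags in EKO, 0 and 96.7 in WT) and Plac8 (0 in both EKO, 0 and 168 in WT) were not higher in EKO. Lyve1, Cd163 and Elane overlapped between genotypes, and the other genes of the monocyte and neutrophil lists had 0 tags. Microglial markers had 5 of 105 tested windows lower and 0 higher, with 33 lower and 0 higher at an unadjusted p under 0.05 in limma, and a median log2 change of -0.37, near the -0.30 of the 7 genes and the -0.43 of Csf1r.

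The Csf2ra sequence is shown because it is the single gain. It is chr19:61229049-61229248 (mm10, minus strand), the centre of the window at -0.731 kb, and it held neither the ETS core nor the SMAD-type box, so no base is in capitals.
Csf2ra window at -0.731 kb: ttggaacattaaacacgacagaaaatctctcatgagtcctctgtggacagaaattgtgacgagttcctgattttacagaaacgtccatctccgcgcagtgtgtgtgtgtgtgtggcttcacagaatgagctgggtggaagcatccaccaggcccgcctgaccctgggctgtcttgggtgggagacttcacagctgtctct

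The beta chain genes gave no call in limma, edgeR or DESeq2. Csf2rb had 1 tested window, at its start site, with 177 and 42.6 tags in EKO and 55.8 and 41.8 tags in WT (log2 change 0.56, SE 0.25, limma adjusted p = 0.110), so that only EKO library 1 stood above WT. The start-site window of Csf2rb2 held 51.2 and 26.9 tags in EKO and 56.2 and 23.9 tags in WT (log2 change -0.26, SE 0.34, limma adjusted p = 0.632). Its other tested window, at 0.719 kb, held 66.2 and 23.9 tags in EKO and 41.1 and 27.9 tags in WT (log2 change -0.09, SE 0.31, limma adjusted p = 0.876). The direction of both Csf2rb2 windows turned on the deposited values and without WT library 1, so no direction is given for this gene. Il34 had no window in the microglial table, which is built on open regions of microglia.

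**Figure D3:**
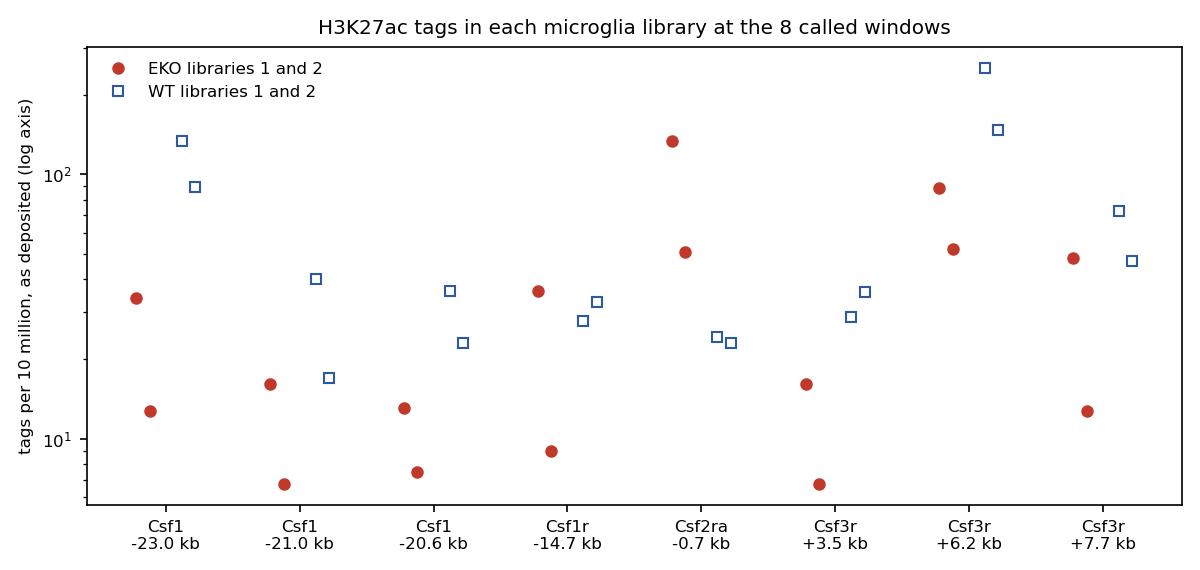
H3K27ac tags per 10000000 as deposited at the 8 called windows. Each point is 1 microglial library, EKO left of WT. In 5 of the 7 lower windows both EKO libraries lie below both WT libraries, and in the one higher window (Csf2ra at -0.731 kb) both EKO libraries, at 133 and 50.8 tags, lie above both WT libraries.

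SALL1 peaks were found at every gene of the set but Il34. A peak was counted where it overlapped an assigned window or the gene body with 5 kb flanks, so the span searched differed between genes. Il34, with no window, was searched over its body and flanks alone. The share of all genes with a peak by this rule was not computed. EKO microglia had 0 SALL1 peaks at the 7 genes in a list of 7 peaks, against 15 in the WT list of 15410. Of these 15, Csf1r had 6, Csf3r 3, Csf2ra 3, and Csf1, Csf2rb and Csf2rb2 1 each. In Csf1r the SALL1 peak at -6378 bp from the start site had a score of 221 in the WT list, at the 98.0 percentile of that list, and those at 184 bp and 3214 bp had scores of 202 and 207. The peaks of Csf2rb and Csf2rb2 lay at -20 bp and 32 bp from their start sites with scores of 89 and 67. Those 2 sites were identical at 174 of 182 aligned positions around the peak centres (95.6%), so a part of the reads may be shared.

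The wild-derived strains had shorter lists, and their counts are set side by side without a comparison. PWK microglia had 4 SALL1 peaks at the set in a list of 3627, 3 at Csf1r and 1 at Csf2ra. Spret microglia had 3 in a list of 2245, 2 at Csf1r and 1 at Csf2ra. The Spret peak upstream of Csf2ra, at -16438 bp, had a score of 81 and stood at the 99.5 percentile of its list, and a WT peak lay at -16535 bp with a score of 103 at the 82.8 percentile of its list.

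SMAD4 and p300 were listed at Csf1r and Csf3r, with 1 further p300 peak at Csf2rb. SMAD4 had 1 peak at the set in a list of 2333 in the libraries labelled mutant, against 5 in a list of 4024 in WT, 3 at Csf1r and 2 at Csf3r. The peak that both lists held was the Csf1r intronic site, centred at 3124 bp in the libraries labelled mutant and at 3105 bp in WT, with a score of 153 in each list. p300 had 15 peaks in a list of 9177, 7 at Csf1r, 7 at Csf3r and 1 at Csf2rb. The highest, at 3084 bp in Csf1r, had a score of 398 and stood at the 99.8 percentile. With 1 list per group, neither the counts nor the scores have a replicate check.

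**Figure D4:**
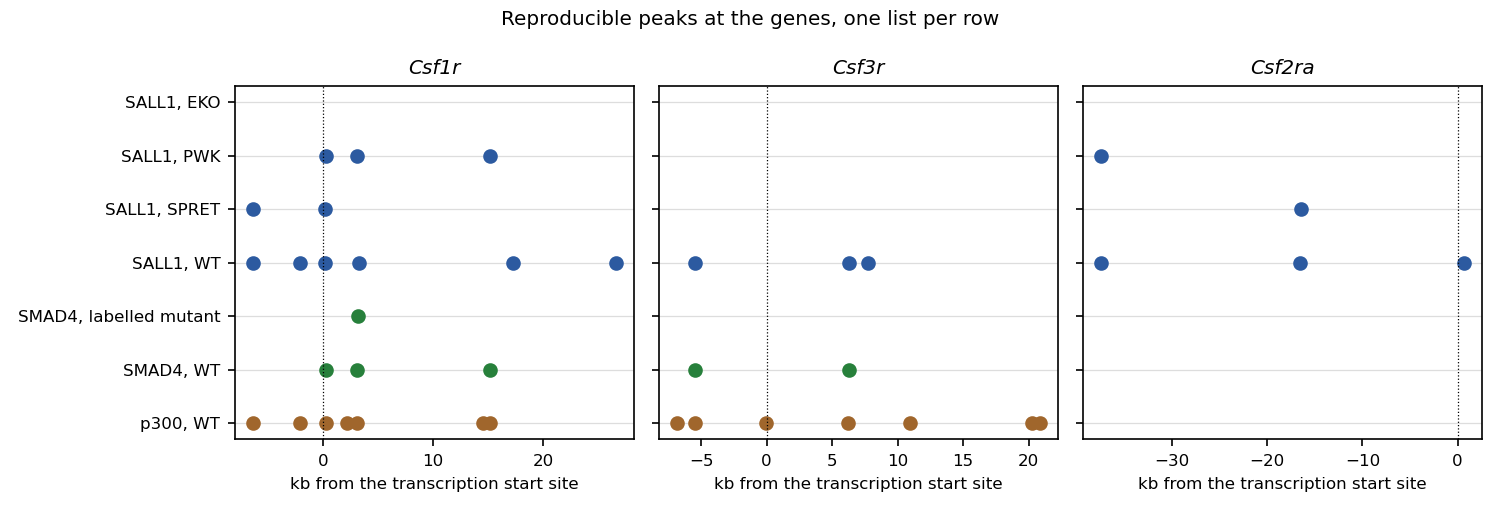
Centres of SALL1, SMAD4 and p300 peaks at Csf1r, Csf3r and Csf2ra, in kb from the start site, with 1 row for each reproducible peak list and 1 point for each peak. Csf1r held peaks in every list except SALL1 in EKO, which had 0 at any of the 7 genes, and Csf3r held 7 of the 15 p300 peaks.

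Genes that act with these receptors were described from a list of 41 (other cytokines and receptors of the same families, adaptors, kinases, STAT and SOCS proteins, and transcription factors downstream). Of these, 40 had windows and 34 had a tested one. Over their 372 tested windows 31 were lower in EKO, or 8.33%, and 20 higher, or 5.38%, against the same 7.23% and 9.22% over all windows, with a median log2 change of -0.11. The lower windows came from 9 genes and the higher from 12. Windows overlapped here too, and the called windows of Csf3, Flt3, Cish, Fyn and Il3ra each formed a single overlapping stretch.

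Pik3r1, which encodes the regulatory subunit of PI3 kinase, had 11 of 45 tested windows lower, the largest change at -28164 bp with 50.2 and 18.7 tags in EKO and 340 and 223 tags in WT (log2 change -3.42, SE 0.21, limma adjusted p = 9.30e-11). Socs3, a feedback inhibitor of cytokine receptors that include CSF3R, had 8 of 16 lower. Its window at 13560 bp had 5.02 and 11.2 tags in EKO and 58.3 and 41.8 tags in WT (log2 change -2.81, SE 0.53, limma adjusted p = 0.000369). Fyn had 3 of 4, and Il3ra, the alpha chain of the IL-3 receptor, had 2 of 5, at 2966 bp and 3423 bp. At 2966 bp Il3ra held 46.2 and 15.7 tags in EKO and 68.2 and 45.8 tags in WT (log2 change -1.34, SE 0.30, limma adjusted p = 0.00223).

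Csf3, the ligand of CSF3R, had 3 higher windows of 4 tested, which overlap. The first, at 7498 bp, held 133 and 38.8 tags in EKO and 17.2 and 7.96 tags in WT (log2 change 2.18, SE 0.36, limma adjusted p = 9.38e-05). Flt3, a receptor kinase of the same family as CSF1R, had 2, with 115 and 38.1 tags in EKO and 13.1 and 6.97 tags in WT at 7420 bp (log2 change 2.33, SE 0.38, limma adjusted p = 6.97e-05). Pdgfrb, the gene next to Csf1r on chromosome 18, had 1 higher window at 29707 bp, with 203 and 59.0 tags in EKO and 11.1 and 9.95 tags in WT (log2 change 2.93, SE 0.31, limma adjusted p = 2.96e-07). In each of these 3 windows both EKO libraries were above both WT libraries. The Pdgfrb window, chr18:61074357-61075357, also lies upstream of Csf1r, just beyond the untested Csf1r window at -28.3 kb. Which gene it acts on was not tested. Csf2, the gene for GM-CSF, had 4 windows with means of at most 9.72 tags and was not tested.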

How the data were processed

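The 7 genes, the gene lists and the tests were chosen with earlier results of these data known. Of 61 samples 31 were ChIP libraries, and their 30 inputs were not used directly. Per the submitters' processing notes reads were mapped to mm10 with Bowtie2 and handled with HOMER.

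For sorted microglia the authors deposited a signal table, H3K27ac tags per 10000000 in 1 kb windows on merged open-chromatin regions. Each value was a whole number of tags within 0.05 tags in 100% of values, which gave the depths. In EKO library 1, 68.8% of low values were multiples of 3 tags, against 30.2% to 40.8% in the other libraries, and its windows held 97.2% of the depth so inferred, against 33.2% to 54.9%, so its depth and whole tags are in doubt. Values were quantile-normalized, log2(tags + 1) was tested with limma 3.58.1 (R 4.3.3) with a mean-variance trend, and windows with a mean over 16 tags entered. edgeR 4.0.16 and DESeq2 1.42.0 on the recovered tags were alternatives, and edgeR called 4044 windows lower and 5718 higher of 55285. The fits were tested on simulated data.

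For nuclei the authors deposited HOMER region lists per library with a normalized tag signal and a fold over input as a ratio. Sums over the gene body with 5 kb flanks move with how much was called. Peak lists held 1 reproducible set per group with a deposited score, pooled over libraries, and scores are ranked within a list. WT p300 joins microglia and PU1 nuclei libraries by the labels, and the labels give SALL1 libraries as microglia. Sequences and promoters came from RefSeq, GRCm38.

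Named windows were the one nearest each start site, called windows, those under a peak and the one with the largest mean, trimmed beyond 6 for a gene. The Csf3r window at 7.68 kb and the Csf1r window at 1.23 kb were picked after their values were seen. So were the Csf2ra windows at 1.12 kb, -38.3 kb and -38.7 kb and the pathway genes given with values.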

Additional observations from a re-analysis of the deposited data

How the results depend on the processing

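The count of windows of the 7 genes called lower was 7, and it was 0 on the deposited values and 3 with a mean above 32 tags required, where fewer windows were tested. With 1 library left out it lay between 0 and 3, the lowest without WT library 1. The count called higher was 1, and it was 0 on the deposited values and 0 with any 1 library left out. The cause was not tested. Median scaling, edgeR, DESeq2, a pseudocount of 4 and no filter gave 5 to 7 lower and 1 higher. With the replicate number as a block (replicate block) 7 were lower and 1 higher, the same windows, and the pairing check gave a correlation of same-numbered deviations of 0.04, so the libraries share only a number.

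The median log2 change of all windows was 0.28 on the deposited values, against -0.01 after quantile normalization, and of the calls on the deposited values 86.4% were higher, against 56.1% after quantile normalization, with 71 lower and 450 higher, against 3995 and 5099. Calls over all windows also moved without WT library 2 (420 lower, 1581 higher), without EKO library 1 (1811 and 1245), without EKO library 2 (1240 and 881), and without WT library 1 (0 and 0). Without the filter they were 2911 and 3842 of 133129 windows, and DESeq2 gave 2837 and 4290. A mean above 32 tags gave 2268 and 3148.

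The sign of the log2 change turned in 11 of the 44 tested windows on the deposited values and in 4 by edgeR, among them the Csf2ra window at 1.12 kb (0.30 and 0.005). Among the named windows the Csf2rb2 window at 0.719 kb had log2 changes of 0.23 on the deposited values and 0.007 without WT library 1, and the one at 0.032 kb 0.015, 0.15 and, without EKO library 1, 0.010. With 1 library left out these 2 windows ranged from -0.18 to 0.007 and from -0.69 to 0.15. The Csf3r window at -5.49 kb had 0.14 on the deposited values. The difference of PU1 minus NeuN nuclei at Csf2ra was 353 tags with 20 kb flanks, 34.3 without WT PU1 library 1 and 14.5 without WT NeuN library 1, and it ranged from -50.1 to 34.3 with 1 library left out. With 1 library left out the counts of genes above and below Olig2 nuclei were 5 to 5 and 2 to 2, and against NeuN nuclei 4 to 4 and 2 to 2. Against Olig2 nuclei the exact permutation p of each gene was then 0.0286 or 0.0571. Of the 15 p300 peaks 9 were in the upper part of their list by score. With regions at least 8-fold over input 4 genes were above Olig2 and 3 above NeuN nuclei, and Csf2rb2 no longer was (exact p = 0.143). With 20 kb flanks 4 were above Olig2 nuclei and Csf2rb no longer was (exact p = 0.0857). Regions over another gene's start site were left out as an alternative chosen after seeing the data, and the counts above and below were again 5, 2, 4 and 2.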

Other observations

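Among genes of the pathway list not described above, Cish, an inhibitor of STAT5 signalling induced by cytokine receptors, had both of its 2 tested windows, which overlap, higher in EKO microglia. Its window at 16679 bp held 82.3 and 23.9 tags in EKO against 10.3 and 7.96 tags in WT microglia, with no overlap (log2 change 1.81, SE 0.42, limma adjusted p = 0.00255). Ets2, a transcription factor downstream of CSF1R signalling, had the largest gain of the list, at 26561 bp, with 112 and 25.4 tags in EKO against 1.64 and 1.99 tags in WT (log2 change 3.97, SE 0.62, limma adjusted p = 4.78e-05). Runx1, a myeloid transcription factor, had 2 lower and 3 higher of 43 tested windows, both shares under those of all windows. At -201622 bp it held 258 and 89.6 tags in EKO against 80.1 and 21.9 tags in WT (log2 change 1.62, SE 0.30, limma adjusted p = 0.000362), and at 24993 bp 10.0 and 10.5 tags in EKO against 47.6 and 36.8 tags in WT (log2 change -2.21, SE 0.45, limma adjusted p = 0.000766).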
